A study of Mus musculus with 30 samples.

Results

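The data are hippocampal transcriptomes of 15 adult female mice of strain C57 BL/6J, 15 of the 30 mice in the series, picked by animal numbers from 41 to 79. The labels put 8 of them in social isolation (SI), 1 mouse to a cage after weaning, and 7 in group housing (GH), several mice to a cage, the controls. No allele, transgene or drug is named for either group, so housing is the difference between them that the labels give. Each mouse is 1 library of polyA-selected RNA from whole hippocampus, and the other 15 mice, all males, enter only where an effect is compared between the sexes. The labels do not say which GH females shared a cage, so the effect of a cage cannot be told apart from the spread between mice, and 1 strain and 1 adult stage were sampled.

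The hippocampus forms spatial, episodic and social memories and helps to end the hormonal response to stress. Its excitatory neurons are the granule cells of the dentate gyrus and the pyramidal cells of CA1 and CA3, and astrocytes around them take up glutamate and supply lipids and energy substrates. Single housing after weaning removes play and contact while synapses and social behaviour mature, and it is used in rodents as a model of early social deprivation. The comparison asked which hippocampal genes differ between SI and GH females and to which functions those genes belong.

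Total counts per library were from 24565563 to 100844898 in SI females and from 28667655 to 53512172 in GH females. The factor that edgeR's TMM method gives each library, which is lower where a few abundant genes take up more of the counts, was from 0.980 to 1.06 in SI and from 0.942 to 1.02 in GH females, on average 0.0446 higher in SI (two-sided p = 0.00746, exact permutation test with all 6435 splits). The tissue label was checked with marker genes, counted in normalized CPM (counts scaled to the TMM-corrected library size) and summed over each list. The 12 dentate gyrus markers summed to between 350.3 and 621.3 CPM in the 15 libraries, the 8 CA1 markers to between 881.1 and 1273 and the 9 CA3 markers to between 396.5 and 527.4. Markers of neighbouring tissue were present too. The 18 choroid plexus markers ranged from 1409 to 7512 CPM over the 15 females, in both groups, and the 12 thalamus markers reached 436.5 CPM in SI 41 against 213 to 273.6 CPM in the other SI females.

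Many genes differed by a small amount between SI and GH females, and most of those called were lower in SI. Of 16026 genes tested with edgeR, 624 (3.89%) were differentially expressed genes (DEGs) at a Benjamini-Hochberg adjusted p under 0.05, of which 470 were lower in SI (2.93% of all genes) and 154 higher (0.961%). The median Log2FC, the fitted log2 difference of SI from GH, was -0.22 for the DEGs that fell and 0.23 for those that rose, beside a median of 0.01 over all genes. It passed 0.5 in size for 21 DEGs and 1 for 4. At an unadjusted p under 0.05 in edgeR, 11% of all genes were lower in SI and 9.29% higher. The DEGs lower in SI were 75.3% of the 624, against 64.8% of 1241 with each library's length and GC trend removed, 63.5% of 838 with limma-voom and 51.9% of 437 with the males in the same fit. For 14 genes (0.0874%) every SI female was above every GH female and for 36 (0.225%) every SI female was below, and 46 of these 50 genes were DEGs.

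**Figure D1:**
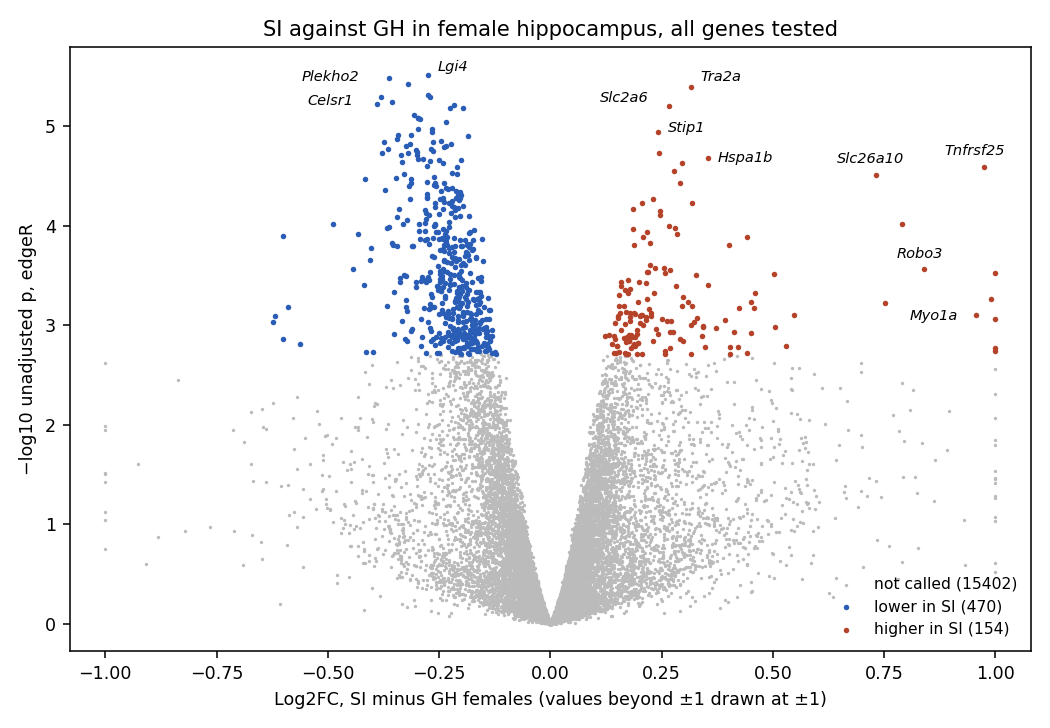
Each point is 1 of 16026 genes. The horizontal axis is the Log2FC of SI minus GH females and the vertical axis the negative log10 of the unadjusted edgeR p, with DEGs lower in SI in blue (470), DEGs higher in SI in red (154) and the others in grey. Most coloured points lie within 0.5 of zero.

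The edgeR calls rest on 3 surrogate variables, which are estimated patterns of variation between libraries that housing does not explain and which enter the model as covariates. Without them edgeR called 0 DEGs, with a lowest adjusted p of 0.0529 and 1875 genes at an unadjusted p under 0.05. DESeq2 without them called 401. limma-voom with quality weights per library, also without them, called 838 genes, which held 450 of the 624. At an adjusted p under 0.1, edgeR without surrogate variables held 131 genes (0.817%), 98 lower (0.612%) and 33 higher (0.206%), all of them among the 624. All 624 DEGs kept their direction in the edgeR fit without surrogate variables and 558 of them had an unadjusted p under 0.05 there. Single mice also mattered to the count, and all 624 kept their direction with each mouse left out. Leaving out SI 68 gave 88 DEGs, SI 63 169, GH 54 226, GH 48 273, SI 49 288 and SI 73 290, whereas leaving out SI 52 gave 1062, GH 78 1077 and GH 46 1373. Of the 624, 67 were DEGs whichever mouse was left out. Among 97 DEGs examined singly, the call was lost for 56 when SI 68 was left out, for 42 with SI 63, 34 with GH 48, 33 with GH 54, 30 with SI 49, 25 with SI 73, 24 with GH 71, 22 with SI 45 and 1 to 4 with each of the other mice. Normalized CPM are not adjusted for surrogate variables, so the ratio of 2 medians need not equal the Log2FC.

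**Figure D2:**
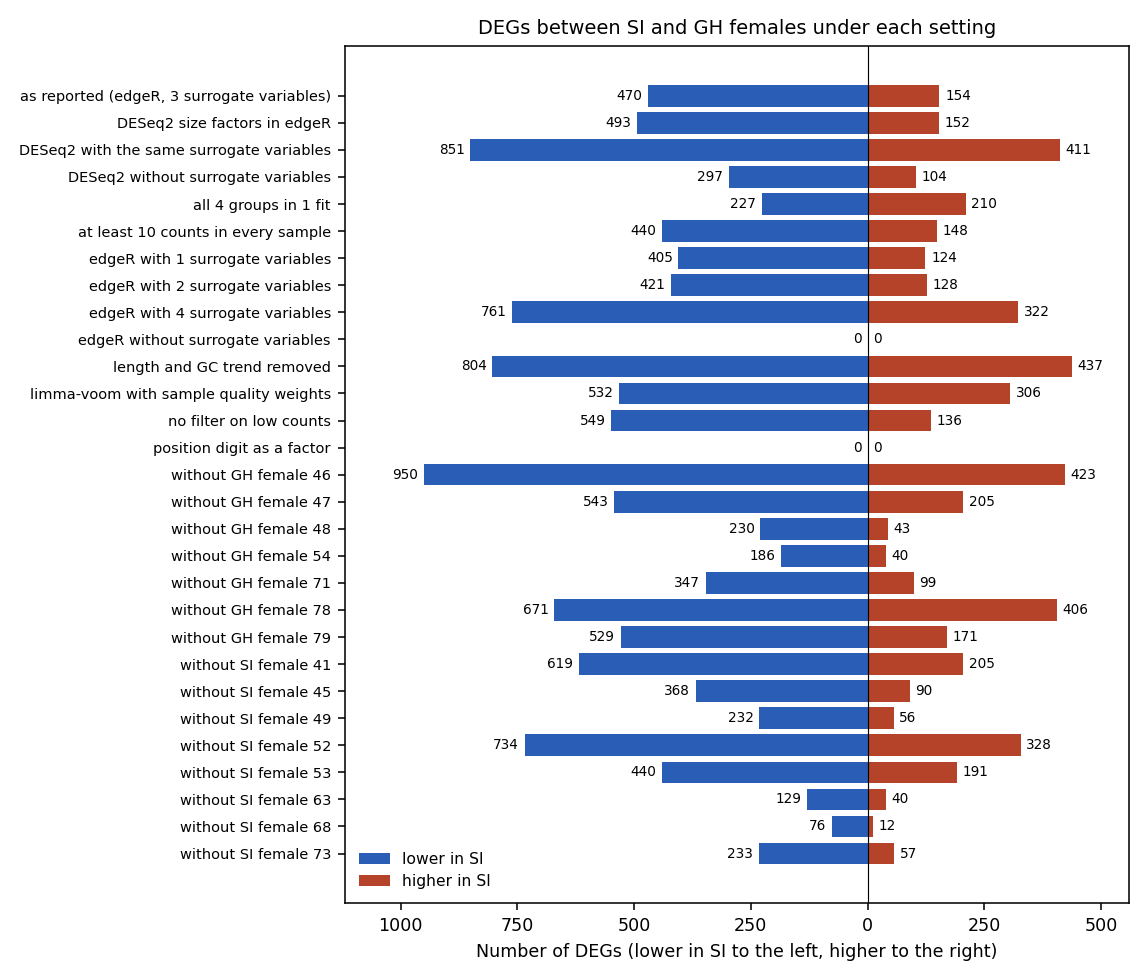
Each bar is 1 setting of the test in females, with DEGs lower in SI drawn to the left and DEGs higher in SI to the right, as numbers of genes. The count was 0 in edgeR without surrogate variables and with the position digit, a number in the labels, as a factor, and from 88 to 1373 with 1 mouse left out.

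To describe functions, 49 lists of genes with a shared role were compared with the DEGs, and 155 of the 624 DEGs were in at least 1 list. Among the lists with 3 or more DEGs, the heat shock list (9 against 1) and the splicing list (10 against 1) had more members that rose than fell, as did the axon guidance list by 2 against 1, an order that turned to 0 against 1 without GH 54, SI 63 or SI 68. Members that fell were more frequent among mitochondrially encoded respiratory genes, ribosomal proteins, postsynaptic scaffolds, kinesins, cholesterol genes and astrocyte markers. The members were chosen with earlier results of these data known, so shares of a list are read beside the shares of all genes and are no test of the list.

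**Figure D3:**
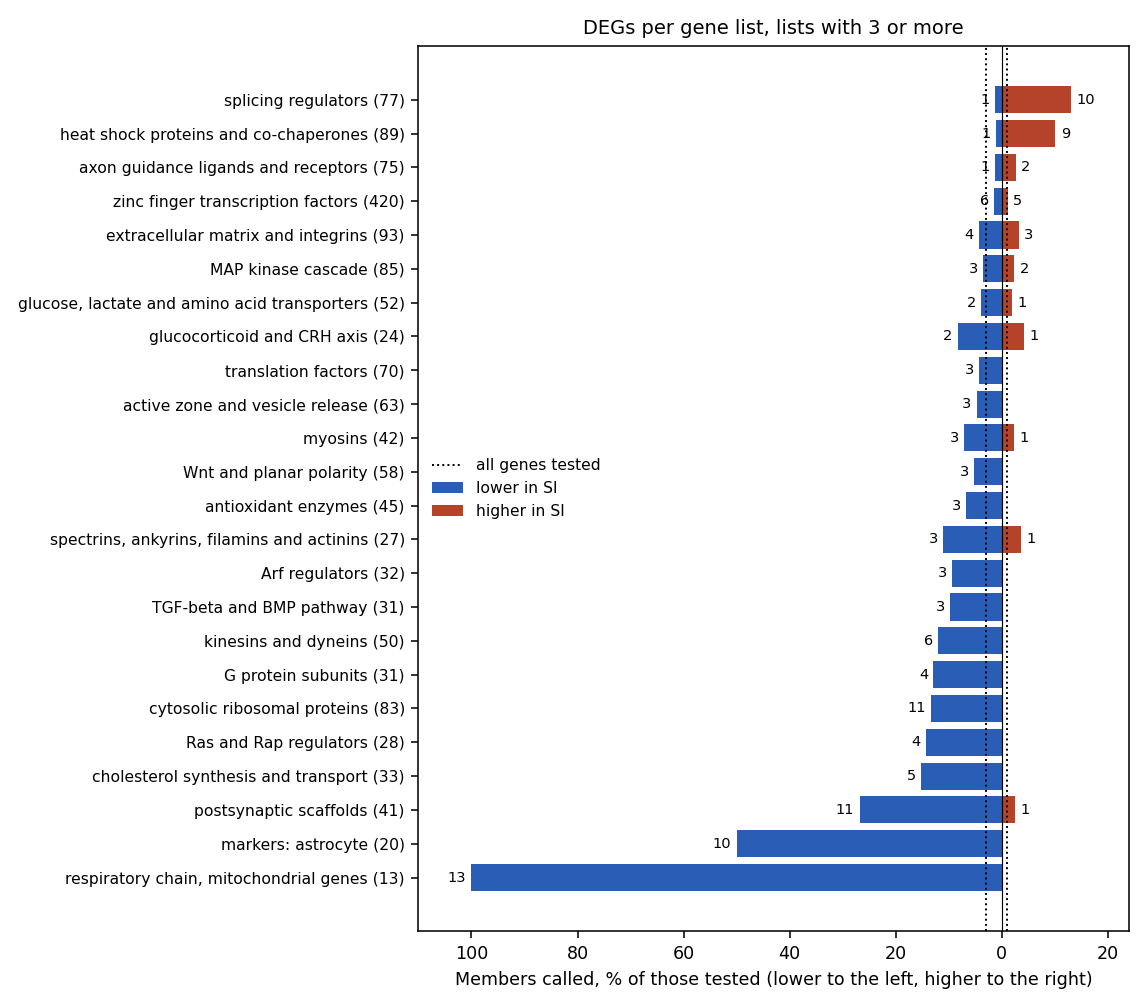
Bars give the percentage of the tested members of each list that were DEGs lower (left, blue) or higher (right, red) in SI females, for lists with 3 or more DEGs. The number of DEGs is at the end of the bar, the number of members tested is in brackets, and dotted lines mark the shares over all genes, 2.93% lower and 0.961% higher. All 13 mitochondrially encoded genes were lower.

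Of 89 tested heat shock proteins and co-chaperones, which fold new or damaged proteins, 9 rose in SI females, 1 fell and 79 were not called. A positive Log2FC was found for 66, and 27 were higher at an unadjusted p under 0.05 (9.29% of all genes). The median Log2FC was 0.06. The summed level of the list was 11155, 11636 and 12540 CPM (lowest, median and highest mouse) in SI and 10505, 10789 and 11149 CPM in GH females. The groups did not overlap, but the lowest SI female, SI 68, was barely above the highest GH female, GH 46. The members that rose were the inducible Hsp70 genes Hspa1a and Hspa1b, the constitutive Hsp70 gene Hspa8, its nucleotide exchange factor Hsph1, the J-domain gene Dnajb5, and Stip1, Ahsa1, Fkbp4 and Chordc1, whose products work with Hsp90.

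Stip1, the adaptor that passes clients from Hsp70 to Hsp90, was at 184, 190 and 217 CPM in SI and at 152, 164 and 174 CPM in GH females. Each of the 8 SI values exceeded the largest GH value, that of GH 46. Its Log2FC was 0.24 (standard error 0.0392, edgeR adjusted p = 0.00703), and it was called with each mouse left out. Hsph1 was at 216, 226 and 272 CPM in SI and at 150, 190 and 208 CPM in GH females, again without overlap (Log2FC 0.29, standard error 0.0525, edgeR adjusted p = 0.00853). Hspa8 was at 1608, 1689 and 1926 CPM in SI and at 1366, 1466 and 1551 CPM in GH females (Log2FC 0.22, standard error 0.0434, edgeR adjusted p = 0.0129). Its groups did not overlap either, and the adjusted p was 0.051 without SI 68. Hspa1b was at 16.9, 21.8 and 30.8 CPM in SI and at 13.2, 17.0 and 21.8 CPM in GH females (Log2FC 0.35, standard error 0.0605, edgeR adjusted p = 0.00703). Here 4 SI females, with SI 45 the highest, exceeded the highest GH female, GH 46. The 1 member that fell, Dnajc27, encodes a J-domain protein with a Rab-like GTPase domain. It was at 119, 124 and 134 CPM in SI and at 135, 145 and 166 CPM in GH females, with no overlap (Log2FC -0.20, standard error 0.0343, edgeR adjusted p = 0.00703).

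The transcription factor HSF1 binds heat shock elements, arrays of the bases NGAAN in alternating direction, and the facing pair GAANNTTC, which reads the same on both strands, was searched in the 250 bases before each gene's start in RefSeq promoters of GRCm38.p6. It was present in 3 of the 8 risen members that had a promoter entry, Hspa1a, Hspa1b and Fkbp4. In the list it was present in 13 of the 74 members with an entry, among them Dnajc27, which fell. Of all 32851 promoter entries 6.69% held it. Members were counted as genes and this percentage counts entries, so the shares cannot be compared directly. The stretches are shown because they are the risen genes with a match, and Fkbp4 and Hspa1a were picked for this after their values were seen. Capitals mark the match, 104 to 97 bases before the start of Hspa1b (chr17:34959275-34959402, minus strand) and 151 to 144 bases before that of Fkbp4 (chr6:128438740-128438867, minus strand).
Hspa1b: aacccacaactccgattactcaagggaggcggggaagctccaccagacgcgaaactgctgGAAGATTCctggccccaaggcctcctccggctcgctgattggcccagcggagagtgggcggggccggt
Fkbp4: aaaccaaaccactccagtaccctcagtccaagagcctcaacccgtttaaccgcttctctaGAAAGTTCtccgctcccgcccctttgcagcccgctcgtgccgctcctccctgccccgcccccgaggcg
The same stretch before Hspa1a (chr17:34972193-34972320, minus strand) had the same base as Hspa1b at all 128 positions. The pair encode near-identical proteins, so how reads were shared between Hspa1a (Log2FC 0.30, standard error 0.0692, edgeR adjusted p = 0.0264) and Hspa1b is uncertain. A match describes letters only, and whether HSF1 was bound was not measured.

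In the stress response of the endoplasmic reticulum, where secreted proteins fold, 2 of 24 genes rose and 0 fell, with 9 higher at an unadjusted p under 0.05 and a median Log2FC of 0.08. Calr, the calcium-binding chaperone calreticulin, was at 357, 382 and 473 CPM in SI and at 291, 310 and 354 CPM in GH females. The groups did not overlap, the Log2FC was 0.29 (standard error 0.0573, edgeR adjusted p = 0.0132), and it was called with each mouse left out. The disulfide isomerase Pdia6 also rose (Log2FC 0.19, standard error 0.0506, edgeR adjusted p = 0.0455) and was called in 5 of the 15 fits that left out a mouse. The 2 that rose became 9 without GH 46, 5 without SI 45, 4 without SI 41 and 1 without GH 47, GH 48, GH 78, SI 49, SI 63, SI 68 or SI 73, and they were 6 with DESeq2 and the same surrogate variables, 7 with trends removed, 6 with limma-voom and 1 with the males in the same fit. On the degradation side, 0 of 49 proteasome subunits and 0 of 33 ubiquitin conjugating enzymes were called in either direction.

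The heat shock list kept its direction when mice were left out, but not its number of calls. The median Log2FC was between 0.05 and 0.08 in these 15 fits, and the members that rose numbered 16 without GH 46, 5 without GH 54 or SI 73 and 3 without SI 68.

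Of 77 splicing regulators, proteins that decide which exons are joined, 10 rose, 1 fell and 66 were not called. Of these 77, 63 had a positive Log2FC, and the median was 0.06. The risen members were the SR and SR-like proteins Tra2a, Srsf1, Srsf7 and Srsf11, the kinases that phosphorylate SR proteins, Srpk1, Clk2 and Clk3, and the hnRNP-type proteins Hnrnph1, Hnrnpc and Tardbp. The summed level was 9760, 10700 and 11760 CPM in SI and 9947, 10092 and 10924 CPM in GH females, and the groups overlapped.

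Tra2a, which activates exons with purine-rich enhancers, was at 34.1, 44.0 and 46.9 CPM in SI and at 31.6, 33.9 and 37.6 CPM in GH females (Log2FC 0.32, standard error 0.0469, edgeR adjusted p = 0.00703). The 2 SI females within the GH range were SI 45 and SI 63. Srpk1 was at 38.2, 39.7 and 41.9 CPM in SI and at 30.8, 34.5 and 38.3 CPM in GH females (Log2FC 0.20, standard error 0.0446, edgeR adjusted p = 0.022), with 7 SI females above the highest GH female. Clk2 was at 17.7, 22.01 and 23.5 CPM in SI and at 17.1, 18.9 and 20.1 CPM in GH females (Log2FC 0.22, standard error 0.0508, edgeR adjusted p = 0.0271), and SI 52 was the only SI female within the GH range. Qk, which encodes the glial RNA-binding protein quaking, was the member that fell (Log2FC -0.20, standard error 0.0471, edgeR adjusted p = 0.0255). Apart from Tra2a the calls of this list hung on single mice. Members that rose numbered 1 without GH 48, SI 63, SI 68 or SI 73, and 2, 3 and 16 when GH 54, SI 49 or GH 78 was left out.

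All 13 genes of the mitochondrial genome that encode core subunits of the respiratory chain and ATP synthase fell in SI females, with Log2FC from -0.42 to -0.32 and a median of -0.37. Among nuclear genes of the same complexes 1 of 96, the complex I subunit Ndufb9 (Log2FC -0.18, standard error 0.0458, edgeR adjusted p = 0.0386), fell, 0 rose and the median was -0.03. The 1 became 8 without SI 52, 7 without GH 46, 5 without GH 71, 4 without GH 79, 2 without GH 78 and 0 without GH 48, GH 54, SI 49, SI 63 or SI 73, and it was 6 with DESeq2 and the same surrogate variables or with trends removed and 0 with limma-voom or with the males in the same fit.

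mt-Nd1, a complex I subunit, was at 3261, 5906 and 8374 CPM in SI and at 5194, 7509 and 9727 CPM in GH females (Log2FC -0.37, standard error 0.0618, edgeR adjusted p = 0.00703). mt-Co1, the catalytic subunit of cytochrome oxidase, was at 11675, 20047 and 26232 CPM in SI and at 17726, 26524 and 31444 CPM in GH females (Log2FC -0.36, standard error 0.0612, edgeR adjusted p = 0.00703). For both genes SI 45, SI 63 and SI 68 alone fell below GH 46, the lowest of the GH females, and the other 5 lay within the GH range. The share of counts on all mitochondrial genes, these among them, also put SI 45, SI 63 and SI 68 alone below GH 46. Counts on mitochondrial genes were 3.97%, 7.29% and 9.30% of each SI library and 6.02%, 8.90% and 10.5% of each GH library, a difference not past the threshold (two-sided p = 0.0817, exact permutation test), and this exact p was 0.0233 without GH 46 and 0.0484 without SI 53. Without surrogate variables the edgeR adjusted p was 0.45 for mt-Nd1 and 0.333 for mt-Co1. The number of the 13 that were DEGs was 0 without SI 45, SI 68 or GH 71, 6 without SI 63, 3 with limma-voom and 7 with the males in the same fit, with the median between -0.47 and -0.24 in the 15 fits with a mouse left out.

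Of 83 cytosolic ribosomal protein genes, 11 fell, 0 rose and 72 were not called. A smaller difference in the same direction was common, since 79 had a negative Log2FC, and 71 were lower at an unadjusted p under 0.05, where 11% of all genes were. The median was -0.15. The fallen members included Rpl3, Rpl9, Rpl13, Rpl13a, Rpl17, Rpl21 and Rpl31 of the large subunit and Rps2, Rps14 and Rps16 of the small subunit. The summed level was 13424, 17239 and 26047 CPM in SI and 16698, 20263 and 26984 CPM in GH females. Counts on these genes were 1.37%, 1.78% and 2.55% of each SI library and 1.70%, 2.02% and 2.58% of each GH library. That difference was not past the threshold (two-sided p = 0.474, exact permutation test).

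Rpl3, which lies near the peptidyl transferase centre, was at 554, 718 and 932 CPM in SI and at 703, 869 and 1072 CPM in GH females (Log2FC -0.17, standard error 0.0361, edgeR adjusted p = 0.0144). Again the 3 mice below the GH range were SI 45, SI 63 and SI 68, while SI 53 was above 6 of the 7 GH females. Rpl13a was at 493, 684 and 1003 CPM in SI and at 681, 830 and 1138 CPM in GH females (Log2FC -0.24, standard error 0.0534, edgeR adjusted p = 0.0221). Without surrogate variables the edgeR adjusted p was 0.5 for Rpl3 and 0.556 for Rpl13a. Translation factors differed from the ribosome itself in their median, -0.00, and 3 of 70 fell and 0 rose. They were the elongation factors Eef2 (Log2FC -0.24, standard error 0.0475, edgeR adjusted p = 0.0131) and Eef1a1, and the initiation factor subunit Eif3f. The 3 became 6 without GH 46, 1 without GH 48, GH 54, SI 45, SI 49 or SI 73 and 0 without SI 63 or SI 68.

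The number of ribosomal protein DEGs varied widely with single mice. It fell to 0 without GH 48, GH 54, SI 49, SI 63 or SI 73 and to 2 without SI 68, and it reached 20 without GH 71, 29 when GH 79, 31 when GH 78, 34 when SI 53, 43 when SI 52 and 50 when GH 46 was left out, while the median stayed between -0.19 and -0.12. It was 42 with DESeq2 and the same surrogate variables, 39 with the length and GC trend of each library removed, 2 with the males in the same fit and 0 with limma-voom. Ribosomal protein genes have many processed pseudogenes, so their counts may hold reads of copies.

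The postsynaptic scaffold list covers proteins of the postsynaptic density, which hold glutamate receptors and signalling enzymes opposite the release site. It also holds the Arf exchange factors Iqsec3, of inhibitory synapses, and Psd3. Of its 41 members tested, 11 fell in SI females, 1 rose and 29 were not called. In all 18 were lower at an unadjusted p under 0.05, and the median was -0.07. The fallen members included Dlg2 and Dlg4 of the PSD-95 family, Dlgap3 and Begain, which bind it, Shank1, Shank3 and Homer2, which join it to metabotropic receptors, the spinophilin gene Ppp1r9b, and Ctnnd2, which links it to cadherins. The summed level was 11988, 12698 and 14016 CPM in SI and 13570, 14794 and 16687 CPM in GH females.

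Iqsec3, an Arf exchange factor of inhibitory synapses, was at 253, 283 and 346 CPM in SI and at 323, 371 and 445 CPM in GH females (Log2FC -0.29, standard error 0.0492, edgeR adjusted p = 0.00703). The SI females within the GH range were SI 52 and SI 68. Ppp1r9b, which ties actin to protein phosphatase in dendritic spines, was at 1853, 2082 and 2598 CPM in SI and at 2312, 2688 and 3186 CPM in GH females (Log2FC -0.28, standard error 0.0553, edgeR adjusted p = 0.0121), with SI 52 alone within the GH range. Its adjusted p was 0.052 without GH 48 and 0.0562 without SI 63. Psd3, another Arf exchange factor, was at 422, 501 and 565 CPM in SI and at 502, 639 and 689 CPM in GH females (Log2FC -0.24, standard error 0.0477, edgeR adjusted p = 0.0127). The member that rose was Baiap2, the actin-bending IRSp53, at 231, 256 and 325 CPM in SI and at 209, 213 and 244 CPM in GH females (Log2FC 0.21, standard error 0.0421, edgeR adjusted p = 0.0134). SI 45 held its highest value, and the adjusted p was 0.052 without GH 48, 0.0654 without GH 54 and 0.0601 without SI 68. Scaffold DEGs that fell numbered 18 without GH 46, 3 without GH 48 or GH 54, 4 when SI 49, 1 when SI 63, 2 when SI 68 and 5 when SI 73 was left out, and 3 with the males in the same fit.

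**Figure D4:**
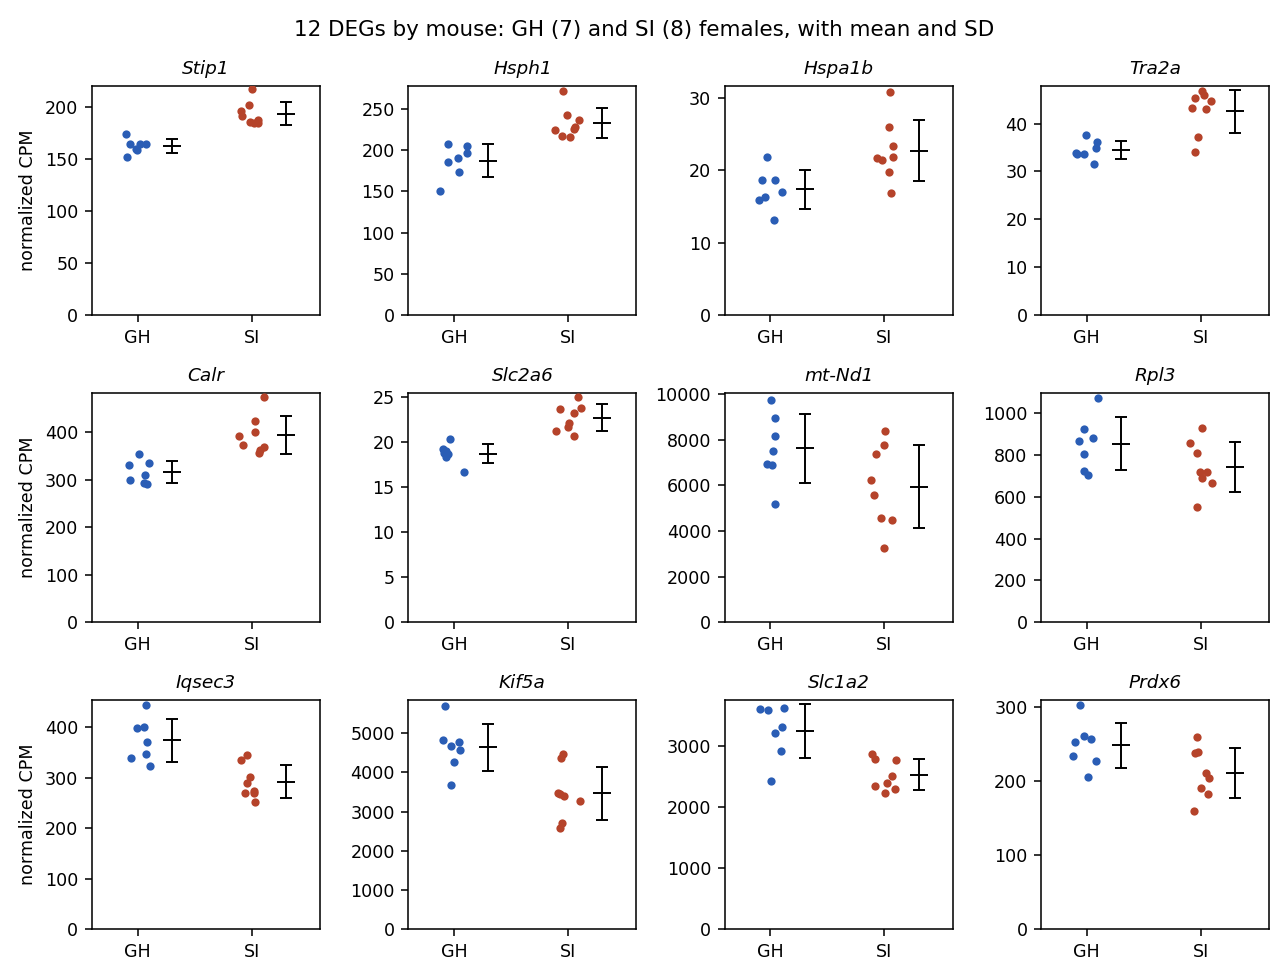
Normalized CPM of 12 DEGs in each female, 1 panel per gene, with 7 GH points on the left and 8 SI points on the right and bars for mean and SD. Stip1, Hsph1, Calr and Slc2a6 (a glucose transporter gene) separate the groups without overlap, while the mitochondrial and ribosomal genes overlap widely.

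Lists of signalling genes also held DEGs, some of them counted in the scaffold list already. The share that fell was 9.38% for Arf regulators, 14.3% for Ras and Rap regulators and 12.9% for G protein subunits. Over all genes it was 2.93%. Of 32 Arf regulators 3 fell and 0 rose, Iqsec3 and Psd3 of the scaffold list and the GTPase-activating Agap2. Agap2 was at 1610, 1779 and 2043 CPM in SI and at 1948, 2243 and 2594 CPM in GH females (Log2FC -0.27, standard error 0.045, edgeR adjusted p = 0.00703). Only SI 52 was within the GH range. Of 28 Ras and Rap regulators 4 fell and 0 rose. They were Rapgef4, the cAMP-activated exchange factor Epac2 (Log2FC -0.34, standard error 0.0571, edgeR adjusted p = 0.00703, and 0.0579 without SI 68), with Rapgef1, Rap1gap2 and Dab2ip. Of 31 G protein subunits 4 fell and 0 rose, which were Gna13, Gnai2, Gng7 and Gng12. Gnai2, an inhibitory alpha subunit, was at 236, 256 and 274 CPM in SI and at 277, 286 and 310 CPM in GH females without overlap (Log2FC -0.17, standard error 0.0342, edgeR adjusted p = 0.0127, and 0.0503 without SI 68). With 1 mouse left out, Arf DEGs that fell became 7 (GH 46 or SI 52) or 6 (GH 78, GH 79 or SI 45), Ras and Rap DEGs 2 (GH 54 or SI 63) or 1 (SI 68), and G protein DEGs 7 (GH 46), 2 (GH 48, GH 54, SI 49 or SI 63) or 1 (SI 68).

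Camk2a, the alpha subunit of the calmodulin kinase required for long-term potentiation, was at 4331, 4819 and 5692 CPM in SI and at 4769, 6045 and 7011 CPM in GH females (Log2FC -0.24, standard error 0.0522, edgeR adjusted p = 0.0197). It was called in 9 of the 15 fits with a mouse left out. With Camk2a, the adenylyl cyclase gene Adcy5 (Log2FC -0.27, standard error 0.0643, edgeR adjusted p = 0.0287) was the other of 44 calmodulin kinase and cAMP enzyme genes that fell, and 0 rose. The fallen were 4.55% of that list, beside 2.93% of all genes. Ntrk2, the receptor of BDNF, fell (Log2FC -0.20, standard error 0.049, edgeR adjusted p = 0.0347) as the 1 of 10 neurotrophin genes called, in 7 of the 15 fits. In the MAP kinase cascade 3 of 85 fell (Mapk3, Mapk8ip1, Dusp8) and 2 rose (Mapk11, Dusp14), and the 3 became 7 without GH 46, 6 without SI 52, 5 without SI 45 and 0 without GH 48, GH 54, SI 49, SI 63, SI 68 or SI 73. The shares of this cascade were 3.53% lower and 2.35% higher, beside 2.93% and 0.961% of all genes.

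On the presynaptic side 3 of 63 genes of the active zone and vesicle release fell, 0 rose and the median was 0.01. They were Rims1, which docks vesicles at calcium channels (Log2FC -0.27, standard error 0.0681, edgeR adjusted p = 0.0386), Apba1 (Log2FC -0.24, standard error 0.0544, edgeR adjusted p = 0.0214) and Ppfia4. They became 6 without GH 46, 5 without SI 41 or SI 52, 1 without GH 48 and 0 without GH 54, SI 49, SI 63, SI 68 or SI 73. None of 32 ionotropic glutamate receptor genes, 7 metabotropic glutamate receptors, 24 GABA receptor genes or 17 calcium channel genes passed the edgeR threshold in either direction, where 3.89% of all genes did. With lists this small, 0 calls are not read as a result about receptors. At an unadjusted p under 0.05 the 4 lists held, in this order, 3 higher and 4 lower, 1 and 1, 2 and 3, and 2 and 1. Among 15 sodium channel genes Scn1a, the main channel of fast-spiking interneurons, rose (Log2FC 0.15, standard error 0.0359, edgeR adjusted p = 0.0258) and Fgf13, a channel-binding factor, fell. Of 43 voltage-gated potassium channel genes 1 fell, Kcnh3 (Log2FC -0.23, standard error 0.0427, edgeR adjusted p = 0.00971, and 0.0601 without SI 68), and of 33 leak, inward rectifier and calcium-activated ones 1 fell, the glial channel gene Kcnj16.

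Kinesins, which carry cargo along microtubules into axons and dendrites, fell in 6 of 50 motor genes, with 0 risen and a median of -0.02. These were the 3 genes of conventional kinesin heavy chain, Kif5a, Kif5b and Kif5c, the synaptic vesicle precursor motor Kif1a, and Kif1c and Kif13a. Kif5a was at 2590, 3429 and 4472 CPM in SI and at 3679, 4662 and 5692 CPM in GH females (Log2FC -0.37, standard error 0.0726, edgeR adjusted p = 0.0126). SI 41 and SI 52 were within the GH range, and the adjusted p was 0.0512 without SI 63 and 0.0601 without SI 68. The dendritic protein Map2 (Log2FC -0.28, standard error 0.063, edgeR adjusted p = 0.022) was the 1 of 34 microtubule-associated genes called. Kinesin DEGs numbered 2 without GH 48, GH 54, GH 71, SI 49 or SI 73 and 1 without SI 63 or SI 68.

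Of 20 astrocyte markers tested, 10 fell in SI females and 0 rose. In all, 19 had a negative Log2FC, 17 were lower at an unadjusted p under 0.05, and the median was -0.20. Their summed level was 8535, 10214 and 11821 CPM in SI and 10257, 12556 and 13442 CPM in GH females. In whole tissue, fewer astrocytes and less of these RNAs per astrocyte cannot be told apart. They included the glutamate transporters Slc1a2 and Slc1a3, the glutamine synthetase gene Glul, the membrane proteins Mlc1 and Hepacam, the enzymes Aldoc, Aldh1l1 and Acsbg1, and S100b.

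Slc1a2, the transporter that clears most synaptic glutamate, was at 2230, 2459 and 2877 CPM in SI and at 2434, 3315 and 3620 CPM in GH females (Log2FC -0.28, standard error 0.0538, edgeR adjusted p = 0.0108). The GH female below the others was GH 46, and it set the overlap, since every SI female was below the other 6. Mlc1, a protein of astrocyte endfeet, was at 185, 248 and 286 CPM in SI and at 264, 307 and 339 CPM in GH females (Log2FC -0.27, standard error 0.0464, edgeR adjusted p = 0.00703), and it was called with each mouse left out. S100b was at 77.6, 114 and 173 CPM in SI and at 106, 152 and 191 CPM in GH females (Log2FC -0.26, standard error 0.0516, edgeR adjusted p = 0.0122), with an adjusted p of 0.0525 without GH 71, 0.0728 without SI 45 and 0.114 without SI 68. Astrocyte DEGs numbered 6 without GH 48, 5 without GH 54 or SI 73 and 2 without SI 63 or SI 68.

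Lists of markers of other cell types held from 0 to 2 calls each. All 22 oligodendrocyte markers (median -0.08) and all 18 microglia markers (median -0.08, 17 with a negative Log2FC and 7 of them at an unadjusted p under 0.05) missed the edgeR threshold. So did the 8 CA1, 9 CA3, 18 choroid plexus, 12 thalamus and 11 striatum markers. Of the choroid plexus markers 16 had a positive Log2FC, 2 of them at an unadjusted p under 0.05. Among 12 dentate gyrus markers, Plk5 (Log2FC 0.45, standard error 0.106, edgeR adjusted p = 0.0282) and Lct (Log2FC 0.42, standard error 0.112, edgeR adjusted p = 0.0458) rose (16.7%, beside 0.961% of all genes) and 0 fell. Of these 12, 11 had a positive Log2FC, 6 were higher at an unadjusted p under 0.05 (9.29% of all genes), and the median was 0.17. Their summed levels were 411.7, 516.9 and 621.3 CPM in SI and 350.3, 447.1 and 555 CPM in GH females. The vascular receptor Flt1 (Log2FC 0.14, standard error 0.0385, edgeR adjusted p = 0.0496) was the 1 of 19 endothelial markers called, and the neuropeptide gene Npy (Log2FC 0.15, standard error 0.0365, edgeR adjusted p = 0.035) the 1 of 18 interneuron markers. With a mouse left out, risen DEGs numbered from 0 to 2 among dentate gyrus, 0 to 4 among endothelial and 0 to 2 among interneuron markers. Without SI 68 the edgeR adjusted p was 0.0995 for Plk5, 0.0948 for Lct, 0.18 for Flt1 and 0.145 for Npy. The part of dissection or cell composition in the gene groups above was not tested.

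Genes of lipid supply and redox defence, functions that astrocytes share, are given beside those markers, and the part of the markers in them was not tested. In the cholesterol list 5 of 33 fell and 0 rose, 11 were lower at an unadjusted p under 0.05 and 0 higher, and the median was -0.08. These were the carrier Apoe, the regulators Srebf1 and Insig1, the synthesis enzyme Lss and the lysosomal carrier Npc2. Apoe was at 2510, 3166 and 3913 CPM in SI and at 3329, 3664 and 4493 CPM in GH females (Log2FC -0.20, standard error 0.0478, edgeR adjusted p = 0.0266). SI 41, SI 52 and SI 53 were within the GH range and the other 5 below it. Insig1, which holds SREBP in the endoplasmic reticulum, was at 67.9, 77.3 and 88.1 CPM in SI and at 81.7, 92.7 and 100.4 CPM in GH females (Log2FC -0.22, standard error 0.0533, edgeR adjusted p = 0.0319). Cholesterol DEGs numbered 0 without GH 54, SI 49 or SI 63, 1 without SI 68, 2 without GH 48, GH 71 or SI 73 and 3 without GH 79 or SI 45.

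Of 45 antioxidant enzymes 3 fell and 0 rose, and 14 were lower at an unadjusted p under 0.05 against 0 higher. The 3 became 5 without GH 46 or SI 52 and 8 without GH 78. Gstm1, a glutathione transferase, was at 169, 213 and 262 CPM in SI and at 233.7, 258 and 315 CPM in GH females (Log2FC -0.30, standard error 0.0506, edgeR adjusted p = 0.00703), and its close paralogue Gstm5 also fell. Prdx6, a peroxiredoxin that reduces phospholipid peroxides, was at 159, 208 and 260 CPM in SI and at 205, 252 and 302 CPM in GH females (Log2FC -0.22, standard error 0.0334, edgeR adjusted p = 0.00703). Gstm1 and Prdx6 were both called with each mouse left out, although the edgeR adjusted p of Prdx6 was 0.34 without surrogate variables. The groups of Prdx6 overlapped, with SI 45, SI 63, SI 68 and SI 73 below the lowest GH female.

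**Figure D5:**
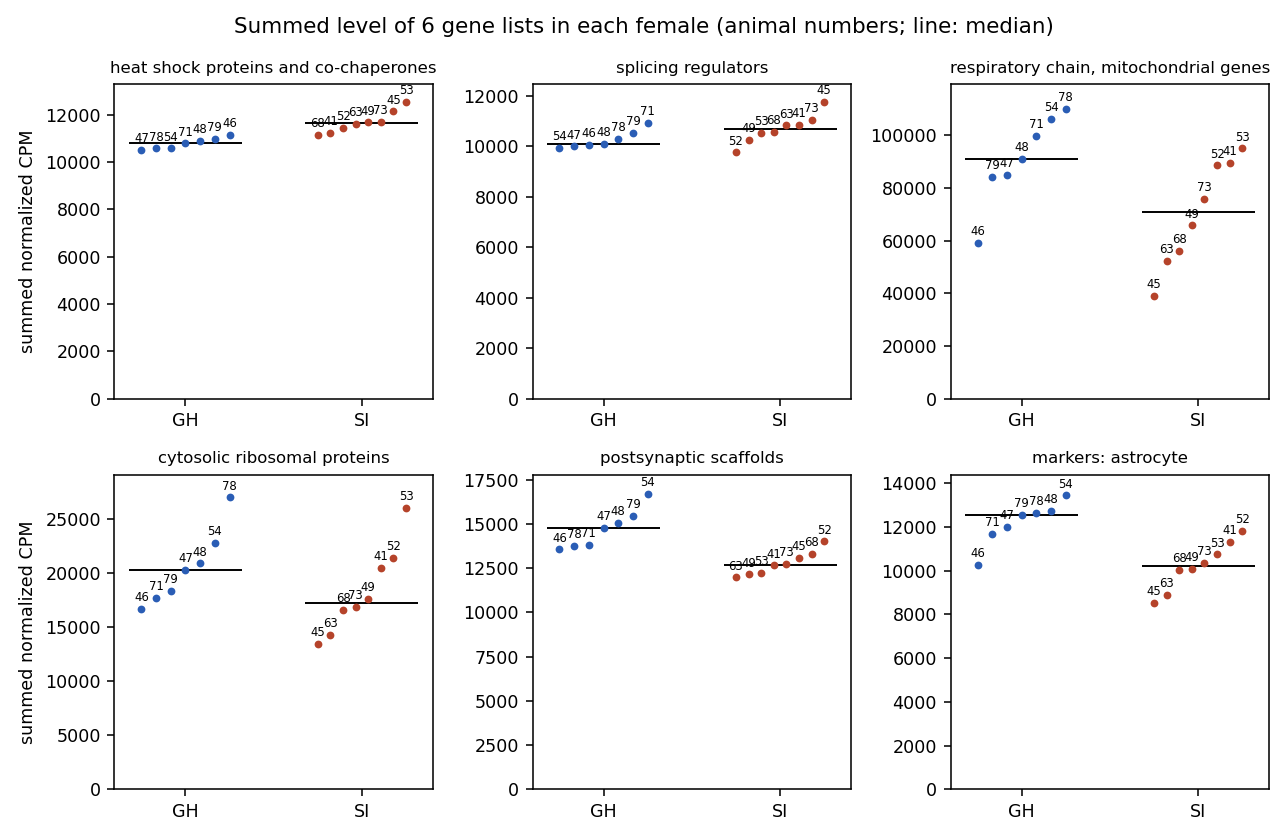
Summed normalized CPM of 6 gene lists in each female, 1 panel per list, with GH on the left, SI on the right, animal numbers beside the points and a line at each median. In the mitochondrial panel SI 45, SI 63 and SI 68 lie lowest among SI females. In the heat shock panel the groups do not overlap, though SI 68 (11155 CPM) is barely above GH 46 (11149 CPM).

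Pathways that set cell fate and tissue form had scattered calls. In the Notch pathway, where neighbours signal through membrane-bound ligands, the glycosyltransferase Lfng was at 16.6, 19.5 and 21.9 CPM in SI and at 21.4, 23.7 and 27.9 CPM in GH females (Log2FC -0.32, standard error 0.0542, edgeR adjusted p = 0.00703), with SI 41 alone within the GH range. It was the 1 of 27 members called. Nrarp, a target and inhibitor of Notch outside that list, was at 25.5, 31.2 and 38.6 CPM in SI and at 34.3, 41.4 and 48.1 CPM in GH females (Log2FC -0.39, standard error 0.0598, edgeR adjusted p = 0.00703). In the TGF-beta and BMP pathway 3 of 31 fell and 0 rose, the BMP target Id4 (Log2FC -0.28, standard error 0.0482, edgeR adjusted p = 0.00728), the receptor Bmpr1b and the transducer Smad5. Of 58 Wnt and planar polarity genes 3 fell and 0 rose, the adhesion receptor Celsr1, the beta-catenin destruction scaffold Apc (Log2FC -0.28, standard error 0.0612, edgeR adjusted p = 0.0209) and the ligand Wnt4. The TGF-beta and BMP list and the Wnt list each held 1 DEG that fell without GH 48, GH 54, SI 45, SI 49, SI 63, SI 68 or SI 73, as did the first of them without GH 71, and the first held 5 without GH 46 or SI 52.

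The extracellular matrix list held calls in both directions. Of 93 genes, 4 fell, the proteoglycans Cspg5, Bcan and Ptprz1 and the matricellular Sparcl1, and 3 rose, the collagens Col4a1 and Col11a1 and the laminin receptor Itga7. The shares were 4.3% lower and 3.23% higher, beside 2.93% and 0.961% of all genes. Itga7 was at 16.4, 19.4 and 23.3 CPM in SI and at 11.99, 15.3 and 18.6 CPM in GH females (Log2FC 0.35, standard error 0.0802, edgeR adjusted p = 0.0227). Of 75 axon guidance genes the semaphorin receptor Plxnb1 fell (Log2FC -0.26, standard error 0.0467, edgeR adjusted p = 0.00853) with no overlap, and Robo3 and Epha7 (Log2FC 0.23, standard error 0.0536, edgeR adjusted p = 0.0249) rose. In this list 1.33% fell and 2.67% rose, beside the same shares of all genes. The risen were 4 without GH 78, 1 without GH 48, SI 45 or SI 49 and 0 without GH 54, SI 63 or SI 68, and 1 rose and 1 fell with the males in the same fit. Matrix DEGs that fell were 2 without GH 48, GH 54, SI 49 or SI 53, 1 without SI 63 and 0 without SI 68, and those that rose were 6 without GH 78 or SI 52, 5 without GH 46, 1 without GH 54 or SI 73 and 0 without GH 48, SI 49, SI 63 or SI 68. Lgi4, the 1 of 46 synaptic adhesion genes called, fell.

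Genes of chromatin and transcription were near the background. Of 58 histone methylation enzymes the H3K9 methyltransferase Suv39h1 fell (Log2FC -0.20, standard error 0.0413, edgeR adjusted p = 0.014, and 0.0501 without GH 48 and 0.0573 without SI 68) and the demethylase Kdm7a rose (Log2FC 0.22, standard error 0.0478, edgeR adjusted p = 0.0199). Of 36 histone acetylation enzymes the deacetylase Hdac5 fell (Log2FC -0.22, standard error 0.0478, edgeR adjusted p = 0.0202) and Sirt7 rose. Chd3, the ATPase of the NuRD repressor complex, was the 1 of 35 remodelling genes called. It was at 901, 1026 and 1147 CPM in SI and at 1153, 1256 and 1500 CPM in GH females, with no overlap (Log2FC -0.30, standard error 0.0468, edgeR adjusted p = 0.00703). Among 420 zinc finger transcription factors 6 fell and 5 rose, a share of 2.62%, with a median of 0.02. Without GH 46 the fallen were 14, without GH 78 or SI 52 10, without SI 73 3, without GH 54 2 and without SI 63 or SI 68 1, and the risen were 8 without GH 78, 3 without GH 71 or GH 79, 2 without SI 41 or SI 45 and 0 without GH 48, GH 54, SI 49, SI 63, SI 68 or SI 73.

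The list on stress hormones held 3 calls, and those on neuronal activity and the circadian clock held 0. Of 24 genes of the glucocorticoid and CRH axis, which includes the receptor, its chaperones and its targets, Mt1 and Pdk4 fell and Fkbp4 rose. These were 12.5% of the list, beside 3.89% of all genes. With a mouse left out, the fallen numbered from 1 to 4 and the risen from 0 to 1. Mt1, a metallothionein induced by glucocorticoids and metals, was at 176, 213 and 302 CPM in SI and at 223, 264 and 355 CPM in GH females (Log2FC -0.30, standard error 0.0509, edgeR adjusted p = 0.00703), and it was called with each mouse left out. Pdk4, a kinase that holds back pyruvate oxidation, was at 8.76, 11.9 and 15.1 CPM in SI and at 11.5, 15.5 and 17.5 CPM in GH females (Log2FC -0.30, standard error 0.059, edgeR adjusted p = 0.0129). Fkbp4, which carries the receptor to the nucleus, was at 116, 130 and 142 CPM in SI and at 107, 109 and 128 CPM in GH females (Log2FC 0.18, standard error 0.0475, edgeR adjusted p = 0.0409), and it was called in 7 of the 15 fits. None of 33 immediate early genes and none of 22 circadian clock genes passed the edgeR threshold, and at an unadjusted p under 0.05 the first had 8 higher and 1 lower and the second 2 higher and 7 lower.

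Some of the larger changes among named genes were at low levels. Tnfrsf25, the death receptor DR3, was at 2.93, 4.36 and 5.86 CPM in SI and at 1.65, 2.06 and 3.20 CPM in GH females (Log2FC 0.97, standard error 0.169, edgeR adjusted p = 0.00728). SI 53 and SI 73 were within the GH range. Slc26a10, of the anion transporter family, was at 6.48, 9.24 and 10.5 CPM in SI and at 4.18, 5.01 and 6.995 CPM in GH females (Log2FC 0.73, standard error 0.129, edgeR adjusted p = 0.00802), with SI 73 alone within the GH range. Robo3, a receptor for axons that cross the midline, was at 7.59, 10.6 and 15 CPM in SI and at 3.27, 6.29 and 7.67 CPM in GH females (Log2FC 0.84, standard error 0.183, edgeR adjusted p = 0.0193). It was not called without GH 54 (adjusted p = 0.0542), SI 63 (0.0509) or SI 68 (0.0988). Col11a1, a fibrillar collagen, was at 2.03, 4.62 and 5.07 CPM in SI and at 1.87, 2.26 and 3.02 CPM in GH females (Log2FC 0.75, standard error 0.178, edgeR adjusted p = 0.0283), and SI 52 and SI 53 were within the GH range.

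The 15 named DEGs with the smallest p that rose had Log2FC from 0.19 to 0.97 and the 15 that fell from -0.39 to -0.20. Of the 15 that rose 10 were called whichever mouse was left out, as were 14 of the 15 that fell, and all 6 exceptions, Dnajb5, Srrt, Rnf112, Stx5a, Clmp and Myo6, were lost without SI 68 (edgeR adjusted p from 0.0522 to 0.0579). Those not yet named span many roles. Among those that rose, Gga3 sorts cargo from the Golgi to endosomes, Stx5a fuses vesicles with the Golgi, and Ints10 and Srrt act in the processing of new transcripts. Srrt was at 82.8, 89.3 and 91.0 CPM in SI and at 70.6, 75.9 and 81.1 CPM in GH females without overlap (Log2FC 0.21, standard error 0.0385, edgeR adjusted p = 0.00971). Among those that fell, Ndst1 sulfates heparan chains, Pon2 is a paraoxonase, C4b a complement factor and Myo6 a motor that walks to the minus end of actin. C4b was at 32.3, 37.0 and 44.4 CPM in SI and at 43.0, 45.6 and 48.6 CPM in GH females (Log2FC -0.29, standard error 0.0465, edgeR adjusted p = 0.00703), with 1 SI female within the GH range.

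Base composition was compared because libraries can differ in it. The DEGs that fell had a median GC content of 53.9% and those that rose 52.1%, against 51.3% over all genes tested, and median transcript lengths of 2286 and 2292 bases against 2122. After each library's trend with length and GC was removed, 449 of the 470 fallen and 142 of the 154 risen DEGs were called.

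In males edgeR with 2 surrogate variables, against 3 in females, called 0 of 15833 genes (2060 had an unadjusted p under 0.05), and the difference between the sexes was tested by the interaction of sex and housing in all 30 mice with 4 surrogate variables. It was called for 1 of 16391 genes (0.0061%), Efcab2, an EF-hand protein gene, with a male minus female Log2FC of 0.44 (edgeR adjusted p = 0.0264). Within females Efcab2 fell (Log2FC -0.32, standard error 0.0588, edgeR adjusted p = 0.00953) and in males its Log2FC was 0.04. Without surrogate variables the interaction was called for 0 genes. Of the 624 female DEGs, 120 had an interaction p under 0.05, where 7.03% of all genes did, a share that the choice of genes in females can raise. The medians of the lists in males were -0.20 for mitochondrially encoded genes, -0.15 for astrocyte markers, -0.12 for scaffolds, -0.03 for ribosomal proteins, 0.04 for heat shock proteins and 0.06 for splicing regulators. At an unadjusted p under 0.05 in males, 15 of 41 scaffolds were lower and 1 higher, and 13 of 77 splicing regulators were higher and 1 lower. Beside these, 4 of 20 astrocyte markers were lower and 1 higher. Of 83 ribosomal proteins 1 was lower, as was 1 of 13 mitochondrially encoded genes, and 5 of 89 heat shock proteins were higher and 3 lower. Over all genes it was 2060 of 15833 in either direction.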

How the data were processed

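Hippocampal RNA of 30 mice was sequenced, and the 15 females, 8 SI and 7 GH by the treatment label, were analysed here. According to the methods and the submitters' processing notes, the authors trimmed reads with Trimmomatic 0.39, quantified them with Salmon 1.8.0 and used DESeq2 1.24.0, with GRCm39 (mm39) as build. The authors deposited 1 table of raw counts, whole numbers that were not normalized, of 17477 genes that each hold at least 100 counts. All columns matched a mouse by name, and 0 columns had no sample. Replicate pairs differed by more than sampling noise (chi-square per degree of freedom at least 9.26).

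In R 4.3.3, genes were kept by filterByExpr of edgeR 4.0.16 (minimum count 10, minimum total count 15), scaled by TMM, and tested with glmQLFit and glmQLFTest for housing with 3 surrogate variables from svaseq of sva 3.50.0 (20 permutations, seed 1). The Benjamini-Hochberg adjustment ran over all genes (threshold 0.05). A prior count of 2 entered the log2 CPM used for the length and GC trends, while the Log2FC of the edgeR tests kept edgeR's default. Single library values were compared by exact permutation over 6435 splits. Alternatives used DESeq2 1.42.0, DESeq2's size factors in edgeR, limma-voom of limma 3.58.1 with quality weights per library, 0, 1, 2 or 4 surrogate variables, other filters, lowess removal of length and GC trends (span 0.3), the position digit of the sample labels, all groups in 1 fit, and each mouse left out. The limma-voom fit and the position digit fit held no surrogate variables. The interaction without surrogate variables and 4 gene lists named below were added after the data were seen. The position digit has no GH female at 3 and is partly confounded with housing.

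The members and the 60 lists (49 of function, 11 of markers) were chosen with earlier results of these data known. The genes named are the 15 DEGs with the smallest p in each direction, up to 4 DEGs per list, and markers, and other DEGs of a list were named to complete its count. Precision is set by the spread between mice. The steps were tested on simulated data. Symbols were found for 94.1% of genes, and length and GC content, from GENCODE vM1, for 91.3%. Motifs were searched in 250 bases before each start, in RefSeq promoters of GRCm38.p6, whose coordinates are not those of the build of the counts. Cages, age in days and enrichment tests were not analysed here. The results of some genes and of 1 list are not reported here.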

Additional observations from a re-analysis of the deposited data

Results flagged for a closer look

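Single mice stood apart from the rest of their group, by Dixon's criterion at the 95% level, in 23 of the 318 groups of values examined, where chance flags about 1 in 20. For single genes these were Hspa8 in SI 53 (1926 CPM, others 1608 to 1728), Clk2 in SI 52 (17.74 CPM, others 21.65 to 23.49), Baiap2 in SI 45 (324.7 CPM, others 231 to 266.4), Camk2a in SI 52 (5692 CPM, others 4331 to 4975) and Lss in SI 53 (19.08 CPM, others 25.82 to 30.08). In GH females they were Sirt7 in GH 78 (33.38 CPM, others 20.08 to 25.65), Col11a1 in GH 71 (3.015 CPM, others 1.869 to 2.325), Pbxip1 in GH 71 (133.3 CPM, others 109.1 to 118.8) and Zcchc24 in GH 46 (103.7 CPM, others 126.8 to 138.1).

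Among summed lists, SI 45, the deepest library, was the highest SI female for genes of the active zone (23934 CPM), synaptic adhesion (9548 CPM), sodium channels (2215 CPM), cadherins (2164 CPM), myosins (2003 CPM), actin nucleation (8359 CPM) and microtubule-associated proteins (10266 CPM). GH 78 was the lowest GH female for histone methylation enzymes (2217 CPM), metabotropic glutamate receptors (326.2 CPM) and axon guidance genes (2947 CPM). GH 71 was highest for the TGF-beta and BMP pathway (1267 CPM) and GH 46 for immediate early genes (1920 CPM). SI 41 was highest for thalamus markers (436.5 CPM) and striatum markers (324.3 CPM).

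The effect of housing differed between the sexes for Efcab2, by an interaction of 0.44 in male minus female Log2FC (edgeR adjusted p = 0.0264), which was called for no gene without surrogate variables. Next by p were C4b (interaction 0.41, edgeR adjusted p = 0.157) and Dusp14 (interaction -0.42, edgeR adjusted p = 0.157), and neither was called.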

How the results depend on the processing

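In females the 624 DEGs (470 lower, 154 higher) became 1262 with DESeq2 and the same surrogate variables (851 lower, 411 higher), 401 with DESeq2 without them (297 lower), 1083 with 4 surrogate variables (761 lower, 322 higher), and 1241 with length and GC trends removed (804 lower, 437 higher). The males in the same fit left 227 lower. limma-voom without surrogate variables gave 838 (532 lower, 306 higher). The count was 0 in edgeR without surrogate variables (1875 genes at an unadjusted p under 0.05) and 0 with the position digit as a factor (1915), in both directions. With 1 mouse left out it ranged from 88 to 1373, with 76 to 950 lower and 12 to 423 higher. The causes were not tested. The interaction went from 1 gene to 0 without surrogate variables, with 1153 and 3074 genes at an unadjusted p under 0.05. No gene named with values changed direction in any setting. Of 97 named DEGs, the call was lost for 97 in edgeR without surrogate variables and for 97 with the position digit. It was lost for 39 with the males in the same fit, 28 with DESeq2 without surrogate variables and 16 with limma-voom without them. With 1 and 2 surrogate variables it was lost for 11 and 5, and with at least 10 counts in every library for 9. It was lost for 5 without a filter, 3 with trends removed and 2 with DESeq2's size factors. With DESeq2 and the same surrogate variables, or with 4 of them, it was lost for 0, and over all genes and mice left out in 285 instances. No paired analysis was possible because each animal number belongs to 1 mouse.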

Other observations

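Lipid metabolism was examined beyond the lists of the report, with 4 further lists made after DEGs had been seen, so their counts describe these genes and test nothing. Over all genes 2.93% were DEGs lower in SI and 0.961% DEGs higher. Of 23 genes of fatty acid synthesis, elongation and desaturation 7 were DEGs and all of these were lower in SI females, which were Fasn, Acaca, Scd1, Scd2, Fads1, Fads2 and Elovl2, with a list median of -0.02. Fads1, a desaturase of polyunsaturated fatty acids, was at 230.0, 280 and 321 CPM in SI (lowest, median and highest) and at 297, 338 and 378 CPM in GH females (Log2FC -0.25, standard error 0.0431, edgeR adjusted p = 0.00703), and it was called with each mouse left out. Scd2, the main stearoyl-CoA desaturase of brain, was at 1220, 1364 and 1459 CPM in SI and at 1448, 1686 and 1804 CPM in GH females (Log2FC -0.24, standard error 0.0449, edgeR adjusted p = 0.00953). Of the 15 fits with a mouse left out, Scd2 was called in 14, Fads2 in 13, Elovl2 and Fasn in 9 each, Scd1 in 7 and Acaca in 5. Of 25 genes of mitochondrial fatty acid oxidation 6 fell and 0 rose, Acsf2, Acadl, Eci1, Cpt1a, Hadh and Decr1, 22 had a negative Log2FC, and the median was -0.10. In the same 15 fits Acsf2 was called in 14, Acadl in 13, Eci1 and Cpt1a in 12 each, Hadh in 9 and Decr1 in 6.

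Of 30 interferon-induced genes Ifit3 (Log2FC -0.62, standard error 0.152, edgeR adjusted p = 0.0328) and Ifit3b (Log2FC -0.60, standard error 0.121, edgeR adjusted p = 0.0134) fell, and 23 had a negative Log2FC. Ifit3b was at 3.57, 3.94 and 5.27 CPM in SI and at 4.19, 6.997 and 9.22 CPM in GH females. It was called in all 15 fits with a mouse left out, and Ifit3 in 9. The 2 genes are close paralogues, so how reads were shared between them is uncertain. Of 36 genes of the RNA-binding Rbm family 5 rose and 0 fell, Rbm4b, Rbm45, Rbm28, Rbm12b1 and Rbm39, with 26 positive Log2FC and a median of 0.10. Rbm39, a splicing coactivator, was at 129, 134 and 140 CPM in SI and at 104, 116 and 127 CPM in GH females with no overlap (Log2FC 0.18, standard error 0.0467, edgeR adjusted p = 0.0427). It was called in 7 of the 15 fits with a mouse left out, Rbm4b in 11, Rbm28 in 9, Rbm45 in 8 and Rbm12b1 in 6.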
